A study of Mus musculus with 27 samples.

Results

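Type I interferon-stimulated genes are the genes that cells switch on when a type I interferon binds its receptor. The present account follows 34 of them, chosen by name, through the colon of mice that lack interleukin-10 and develop colitis. Each gene was read from 1 probe set, the one with the highest mean over the 27 arrays among those that carry that gene's symbol alone. By this rule 32 of the 34 genes were measured, out of 18193 genes on the array. The other two, Isg15 and Ifi44, were not analysed here, because no probe set carried either symbol alone.

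The study profiled full-thickness colon on Affymetrix mouse arrays in 9 groups of 3 arrays. WT denotes wild-type mice in conventional housing, at 7, 9 and 12 weeks of age. SPF denotes Il10-/- mice held free of specific pathogens, and CC denotes Il10-/- mice, read here by elimination as those in conventional housing, each at the same 3 ages. Groups are named by age and code, so that 9CC is the CC group at 9 weeks. Wild-type mice in pathogen-free housing were not analysed here, so SPF minus WT changes both the genotype and the housing, whereas CC minus WT changes the genotype and CC minus SPF the housing. The 3 replicates of each group had been picked by the authors for their colon length and tissue damage, and whether an array holds 1 animal or a pool is not given in the sources used here, so the p-values measure the spread between these arrays only.

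Type I interferons are made when sensors of foreign or misplaced nucleic acid fire. They signal through a shared receptor and the kinases Jak1 and Tyk2 to a complex that includes STAT2 and IRF9 and binds a short DNA element in the promoters of responding genes. The products of these genes degrade viral RNA, block translation and entry, tag proteins with ISG15, and raise the sensors and transcription factors of the pathway itself. Interferon gamma, made by lymphocytes, acts through a different receptor, and many genes answer to both kinds of interferon. In the gut, the microbiota is known to help keep these genes at a basal level.

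The response element was looked for in RefSeq promoters (build GRCm38.p6, from 250 bases before to 50 after the start of each gene), which were held for 23 of the 32 measured genes. The letters GAAANNGAAA, or their reverse complement TTTCNNTTTC, occurred in promoters of 9 genes: Ifit1, Ifit3, Oas3, Rsad2, Ifih1, Ddx58, Stat2, Bst2 and Eif2ak2. They were in 9 of the 27 promoters of measured genes and in 3.44% of all 32851 promoters. The letters TTCNNNGAA, an element known from promoters that answer to interferon gamma, were in promoters of 5 genes (Ifit2, Isg20, Ifi35, Bst2 and Eif2ak2) and in 8.3% of all promoters. Stretches of 6 promoters are shown because they belong to genes whose levels took different courses in these colons. They run 5′ to 3′ along the gene's strand, with the GAAANNGAAA matches in either orientation in capitals.
Ifit1: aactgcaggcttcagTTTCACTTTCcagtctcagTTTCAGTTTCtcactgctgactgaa
Ifit3: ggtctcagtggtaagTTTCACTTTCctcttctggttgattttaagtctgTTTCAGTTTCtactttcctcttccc
Rsad2: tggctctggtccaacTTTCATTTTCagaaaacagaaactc
Oas3: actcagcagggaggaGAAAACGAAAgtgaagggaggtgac
Bst2: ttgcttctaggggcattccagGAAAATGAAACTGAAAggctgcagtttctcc
Stat2: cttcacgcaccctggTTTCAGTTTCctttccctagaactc
The Ifit1 stretch lies at chr19:34640770-34640828 on the plus strand and holds 2 matches, as does that of Ifit3 at chr19:34583358-34583431, also on the plus strand. The Rsad2 stretch is chr12:26456548-26456587 and the Oas3 stretch chr5:120777710-120777749, both on the minus strand. In Bst2, at chr8:71537572-71537623 on the minus strand, 2 matches overlap each other, and the TTCNNNGAA match overlaps the first of them. The Stat2 stretch is chr10:128270261-128270300 on the plus strand. A match is a description of the letters and not a site of binding.

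All values are log2 intensities, so that a difference of 1 is a 2-fold change. Array medians lay between 4.92 and 4.99, and any pair of arrays had a Spearman correlation across genes of 0.953 to 0.993. The Il10 probe set read at least 4.66 on the 18 knockout arrays and at most 3.83 on the 9 wild-type arrays, that is, higher in the mice labelled as lacking the gene, so it does not check the knockout. The tissue markers were at colon levels throughout, with Epcam between 12.40 and 12.80. 1 array, 7WT replicate 1, had a mean of 7.81 over 8 pancreatic acinar markers against at most 6.01 elsewhere, and 12WT replicate 2 had the largest 3′ to 5′ difference of the actin control probe sets, 0.95 against at most 0.72.

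Averaged over the 32 genes, the WT arrays were the lowest, with 1 exception. The mean level was 7.09 to 7.42 on 8 of the 9 WT arrays and 7.79 on the other, 7WT replicate 3. It was 8.24 to 8.44 on the 9CC arrays, 7.97 to 8.26 on the 9SPF arrays, 7.69 to 7.81 on the 12CC arrays and 7.48 to 7.66 on the 7CC arrays. The 7SPF arrays ran from 7.77 to 8.47 and the 12SPF arrays from 7.68 to 8.29. For 18 genes the highest of the 9 group means was that of 9CC, and for 8 it was that of 7SPF: Irf7, Ifit1, Ifit3, Ifih1, Ddx58, Cmpk2, Oas2 and Oas3. The lowest mean was that of 12WT for 15 genes and of 9WT for 11. For these counts, no matching shares over all genes were worked out.

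**Figure D1:**
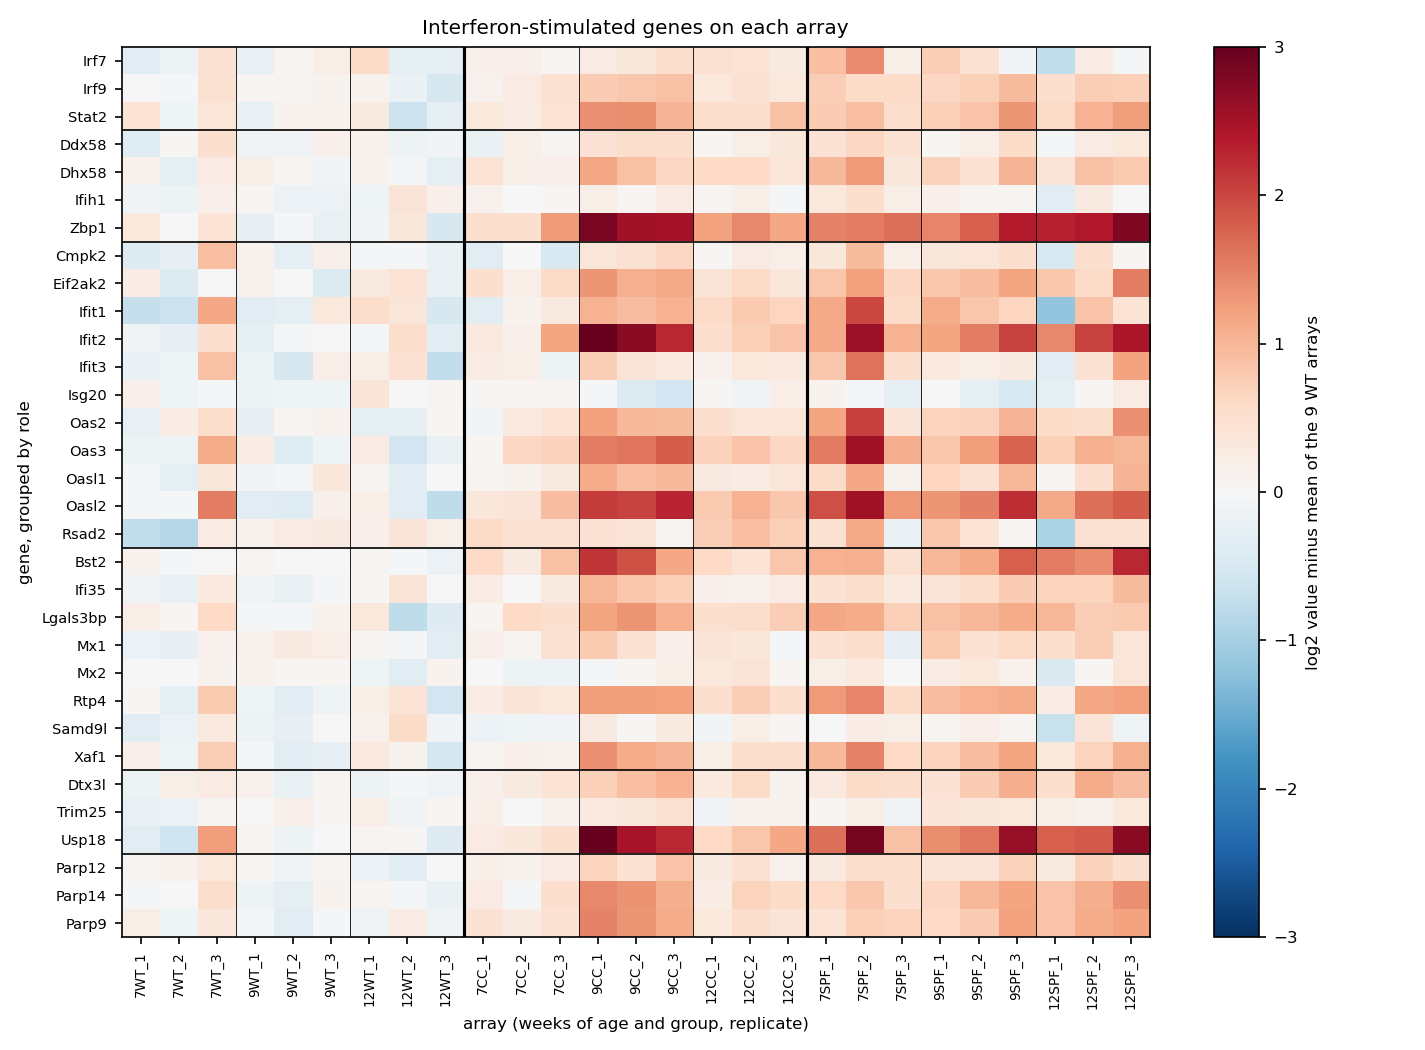
Each row is a gene, grouped by role, and each column an array; colour gives the log2 value minus the mean of the 9 WT arrays for that gene. Zbp1, Ifit2, Oasl2 and Usp18 are dark on all 3 arrays of 9CC, while Isg20, Mx2 and Samd9l stay pale in every group, and 7WT replicate 3 and 7SPF replicate 2 are darker than the other arrays of their groups.

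4 arrays stood apart within their own groups in these genes. In 7WT, replicate 3 was the highest of 3 arrays for 28 of the 32 genes. In 7SPF, replicate 2 was the highest for 28 genes and replicate 3 the lowest for 25. In 12SPF, replicate 1 was the lowest for 25 genes. For part of the results that rest on them, values without them are given as well.

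At 9 weeks most of the genes were higher in the conventionally housed knockout colon than in wild type. In limma's moderated test with Benjamini-Hochberg adjustment over 18193 genes, calling a gene at an adjusted p under 0.05, 22 of the 32 genes were higher in 9CC than in 9WT and none was lower. In the same comparison 14.2% of all genes were called higher. The median difference was 0.94 over the 32 genes and 0.00 over all genes. These are whole-colon RNAs, so more cells of a type and more RNA per cell cannot be told apart.

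Of the transcription factors, Stat2 and Irf9, which carry the receptor's signal to DNA, rose, and Irf7, which amplifies interferon production, did not pass the test. Stat2 read 5.65, 5.97 and 5.98 in 9WT and 7.24, 7.27 and 6.89 in 9CC. The groups did not overlap, and the difference was 1.27 ± 0.21 (SE, n = 3 against 3, limma adjusted p = 0.000343). Irf9 was 0.75 ± 0.14 higher. Irf7 read 8.15, 8.43 and 8.58 in 9WT and 8.63, 8.73 and 8.90 in 9CC, a difference of 0.37 ± 0.28 (limma adjusted p = 0.38). The 3 arrays of 9CC were all above the 3 of 9WT for Irf7 too.

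Among the 4 sensors of nucleic acid, Zbp1, which binds left-handed double-stranded RNA and DNA and can start necroptosis, changed most. It read 6.10, 6.31 and 6.12 in 9WT and 9.20, 8.88 and 8.85 in 9CC, so that every 9CC array exceeded every wild-type array of the series. The difference was 2.80 ± 0.22, or 6.96-fold (limma adjusted p = 2.83e-07). Dhx58, the RNA helicase also called LGP2, was 0.83 ± 0.20 higher, and Ddx58, which encodes RIG-I, was 0.52 ± 0.17 higher. Ifih1, which encodes MDA5, the sensor of long double-stranded RNA, was not called, with 0.27 ± 0.13 (limma adjusted p = 0.153).

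The 11 RNA-binding and nucleotide effectors divided. Called higher were 6: Ifit2, Oasl2, Oas3, Oas2, Oasl1 and the translation-blocking kinase Eif2ak2, also called PKR. Ifit2, which binds viral RNA, read 6.10, 6.34 and 6.39 in 9WT and 9.76, 9.11 and 8.65 in 9CC. That gap of 2.90 ± 0.37, or 7.44-fold, was the largest of any of the 32 genes in this comparison. Oasl2, an oligoadenylate synthetase-like protein, read 7.19, 7.17 and 7.69 in 9WT against 9.64, 9.55 and 9.81 in 9CC, 2.31 ± 0.35 higher. Oas3, which makes the oligoadenylate that activates RNase L, was 1.74 ± 0.33 higher.

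The neighbours of Ifit2 in the same family behaved differently in the test. Ifit1, which binds uncapped and incompletely capped RNA, read 7.35, 7.41 and 7.99 in 9WT and 8.70, 8.60 and 8.71 in 9CC. The groups did not overlap, but with a larger spread over the series the difference of 1.09 ± 0.45 was not called (limma adjusted p = 0.0871). Ifit3 differed by 0.62 ± 0.34 (limma adjusted p = 0.205). Rsad2, which encodes viperin, an enzyme that makes a chain-terminating nucleotide, read 7.89, 8.03 and 8.06 in 9WT and 8.23, 8.17 and 7.87 in 9CC, and its difference was 0.09 ± 0.32 (limma adjusted p = 0.871). The Rsad2 groups overlapped. Cmpk2, a mitochondrial nucleotide kinase that lies beside Rsad2 on chromosome 12, differed by 0.48 ± 0.26, and the exonuclease gene Isg20 by -0.21 ± 0.15, neither of them called.

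Of 8 membrane, GTPase and other effectors, 5 were called higher: Bst2, Rtp4, Xaf1, Lgals3bp and Ifi35. Bst2, or tetherin, which holds budding virions on the cell surface, read 6.43, 6.36 and 6.35 in 9WT and 8.50, 8.26 and 7.52 in 9CC, 1.71 ± 0.24 higher. Rtp4 was 1.43 ± 0.27 higher, the apoptosis-linked Xaf1 1.38 ± 0.24, the secreted galectin-binding Lgals3bp 1.20 ± 0.20 and Ifi35 0.96 ± 0.13. The antiviral GTPase genes Mx1 and Mx2 were not called, at 0.26 ± 0.19 and -0.01 ± 0.15, nor was Samd9l at 0.32 ± 0.19. Mx2 was the dimmest of the 32, between 4.0 and 4.82 on all 27 arrays.

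All 3 measured genes of ISG15 conjugation and ubiquitin ligation were called, as were all 3 of the ADP-ribosyltransferase family. Usp18, which removes ISG15 from proteins and damps the type I receptor, read 5.23, 4.99 and 5.17 in 9WT and 8.27, 7.61 and 7.40 in 9CC, 2.63 ± 0.43 or 6.21-fold higher (limma adjusted p = 0.000315). Dtx3l, the ubiquitin ligase that partners PARP9, was 0.88 ± 0.17 higher. Trim25, the ligase that acts on RIG-I, was 0.31 ± 0.10 higher, the smallest called difference of the 22. Its call was lost in 5 of the 6 fits that left out 1 array, with a limma adjusted p of up to 0.102, and after centring arrays on their medians (limma adjusted p = 0.0533). The call of Ddx58 was likewise lost in 5 of 6, with a limma adjusted p of up to 0.0873. Parp9 was 1.45 ± 0.15 higher, Parp14 1.40 ± 0.18 and Parp12 0.66 ± 0.13.

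**Figure D2:**
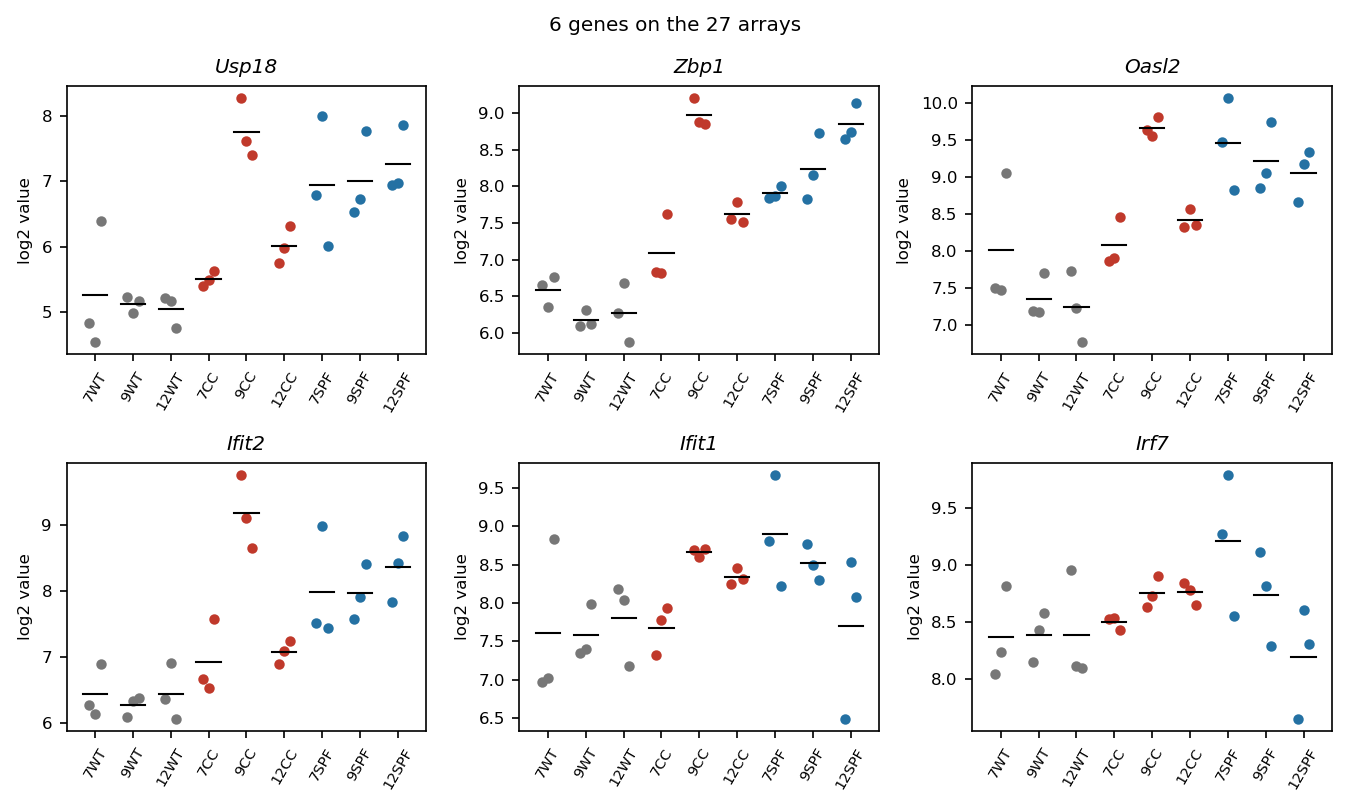
Points are single arrays and bars the mean of 3, on the log2 scale, for 6 genes in the 9 groups (grey WT, red CC, blue SPF). Usp18, Zbp1, Oasl2 and Ifit2 are high in 9CC and fall back in 12CC, whereas Ifit1 and Irf7 have their highest array in 7SPF (9.67 and 9.79, replicate 2) and their lowest in 12SPF (6.49 and 7.65, replicate 1).

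In pathogen-free housing at 9 weeks, 18 of the 32 genes were higher in 9SPF than in 9WT and none was lower by the same limma test, where 7.41% of all genes were called higher. This comparison uses the same 9WT arrays as the one before. The median difference was 0.73. Zbp1 read 7.82, 8.15 and 8.72 in 9SPF, 2.05 ± 0.22 or 4.15-fold above 9WT. Usp18 read 6.53, 6.73 and 7.76, which was 1.88 ± 0.43 above. Replicate 3 of 9SPF was the highest array for 22 of the 32 genes, and without it the count of genes called higher fell to 9. On that array the neutrophil markers averaged 5.28 against 3.69 and 3.89 on the other arrays of 9SPF, the interferon gamma genes 9.39 against 8.02 and 8.62, and the smooth muscle markers 10.23 against 10.93 and 10.70. The part of these in the difference was not tested. The smallest called difference was that of Parp12, 0.50 ± 0.13.

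Set directly against each other at 9 weeks, 9CC and 9SPF gave no call in these genes by limma (4 were higher and none lower at an unadjusted p under 0.05), and 0% of all genes was called either way. The median difference of CC minus SPF was 0.21. The widest was that of Ifit2, 1.20 ± 0.37 (limma adjusted p = 0.278), followed by Zbp1 and Usp18, both at 0.75. For Ifit2 9SPF ran from 7.58 to 8.41 and 9CC from 8.65 to 9.76, without overlap.

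At 7 weeks the higher levels of the knockouts were those of 7SPF, though few differences passed the test. Zbp1 read 7.84, 7.87 and 8.01 in 7SPF, 6.84, 6.82 and 7.63 in 7CC and 6.66, 6.35 and 6.76 in 7WT. It was the single gene of the 32 called higher in 7SPF than in 7WT, by 1.31 ± 0.22 or 2.48-fold (limma adjusted p = 0.01277), where 0.033% of all genes were called higher. The median difference was 0.66 over the 32 genes and 0.01 over all genes, 25 of the 32 were higher at an unadjusted p under 0.05, and in 12 of the 32 all 3 arrays of 7SPF exceeded all 3 of 7WT, which held for 7.85% of all genes.

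The calls between 7SPF and 7WT depended on single arrays. Usp18 read 4.84, 4.54 and 6.39 in 7WT and 6.79, 8.0 and 6.02 in 7SPF, so that 7WT replicate 3 overlapped 7SPF replicate 3. The difference was 1.68 ± 0.43 (limma adjusted p = 0.249). Oasl2 likewise read 7.50, 7.47 and 9.06 in 7WT and 9.48, 10.07 and 8.83 in 7SPF, 1.45 ± 0.35 (limma adjusted p = 0.188). Without 7WT replicate 3, 5 genes were called: Zbp1, Oasl2, Oas3, Usp18 and Irf9. Without 7SPF replicate 3 it was 2, Oas2 and Dhx58, without 7WT replicate 1 it stayed at 1, and without 7WT replicate 2, 7SPF replicate 1 or 7SPF replicate 2 it was 0, with Zbp1 at 1.19 to 1.35 and a limma adjusted p of 0.0554 to 0.181 in those fits. With both 7WT replicate 3 and 7SPF replicate 2 left out, a choice made after the data were seen, 3 were called: Zbp1, Oas3 and Oasl2.

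In the mean of the 32 genes, all 7CC arrays lay above 7WT replicates 1 and 2 and below 7WT replicate 3. The 7WT arrays averaged 7.23, 7.14 and 7.79, and the 7CC arrays 7.48, 7.50 and 7.66. None of the 32 genes was called by limma (5 were higher and none lower at an unadjusted p under 0.05), where 0.506% of all genes were called in either direction. The median difference, with 7WT replicate 3 included, was 0.13. Rsad2 had the widest difference, 0.94 ± 0.32 (limma adjusted p = 0.243), with 7.06, 6.92 and 8.03 in 7WT and 8.36, 8.23 and 8.24 in 7CC. Between the knockouts, 7CC minus 7SPF had a median of -0.47 over the 32 genes and -0.01 over all genes. No gene was called by limma, 18 were lower and none higher at an unadjusted p under 0.05, and 0.269% of all genes were called either way. In 20 of the 32 genes all 3 arrays of 7CC lay below all 3 of 7SPF, which held for 8.17% of all genes. Without 7SPF replicate 3 1 gene was called, Oas2, and with 7WT replicate 3 and 7SPF replicate 2 both left out it was 0, with a median of -0.36.

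Irf7 and Ifit1 show that gap on each array. Irf7 read 8.52, 8.53 and 8.43 in 7CC and 9.27, 9.79 and 8.55 in 7SPF, a difference of -0.71 ± 0.28 (limma adjusted p = 0.80). Ifit1 read 7.32, 7.77 and 7.94 in 7CC and 8.81, 9.67 and 8.23 in 7SPF, a difference of -1.22 ± 0.45 (limma adjusted p = 0.687). In both genes the groups did not overlap, and 7SPF replicate 2 was the highest array of all 27.

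Genes of the circadian clock differed in part of these comparisons. Of 16 clock genes, 4 were higher and 7 lower in 7CC than in 7WT, and again 4 higher and 7 lower in 7CC than in 7SPF, while none was called between 7SPF and 7WT by limma (none at an unadjusted p under 0.05 either). Of all genes, 0.506% were called either way between 7CC and 7WT and 0.269% between 7CC and 7SPF. Nfil3 was 2.50 ± 0.24 higher and Ciart 2.04 ± 0.26 lower on the log2 scale in 7CC than in 7WT. The mean over the 16 genes was 7.20 to 7.33 in 7WT, 7.25 to 7.39 in 7SPF and 6.46 to 6.72 in 7CC. Some clock genes were called at the later ages too. By limma 1 was higher and 3 lower in 9CC than in 9WT, where 2582 of the 18193 genes were higher and 1793 lower. Over both directions this was near the share of all genes. In 9SPF 2 were higher and 6 lower than in 9WT, where 1349 of all genes were higher and 806 lower. In 12SPF 1 was higher and 7 lower than in 12WT, where 3305 of all genes were higher and 3024 lower. The mean over the 16 clock genes was 6.64 to 6.71 in 9WT, 6.003 to 6.73 in 9CC and 5.84 to 6.37 in 9SPF. At 12 weeks it was 6.61 to 7.17 in 12WT, 6.34 to 6.56 in 12CC and 5.96 to 6.23 in 12SPF. The part of sampling time in the differences of the interferon genes was not tested.

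At 12 weeks the higher levels were again in SPF. By limma 21 of the 32 genes were higher in 12SPF than in 12WT and none lower, where 18.2% of all genes were called higher, and the median difference was 0.75. Zbp1 read 6.28, 6.69 and 5.88 in 12WT and 8.65, 8.75 and 9.14 in 12SPF, 2.56 ± 0.22 or 5.92-fold higher. Usp18 read 5.22, 5.17 and 4.76 against 6.94, 6.97 and 7.85, 2.21 ± 0.43 or 4.63-fold higher. Bst2 read 6.44, 6.30 and 6.19 against 7.89, 7.76 and 8.62, 1.78 ± 0.24 higher. The Bst2 group mean of 8.09 in 12SPF was level with the 8.09 of 9CC. Mx1 was called here, 0.63 ± 0.19 higher. Fitted on the arrays of 12SPF and 12WT alone, 13 genes were called. Without 12SPF replicate 1 the count was 21 as well.

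CC minus WT at 9 weeks and SPF minus WT at 12 weeks share no array. Both were tested with the same spread per gene, estimated over all 27 arrays, so their lists of calls are not independent. These comparisons had 20 called genes in common, 90.9% of the 22 called at 9 weeks and 95.2% of the 21 called at 12 weeks. Over all genes, the 2008 called higher in both were 77.8% of the 2582 at 9 weeks and 60.8% of the 3305 at 12 weeks. Ddx58 and Trim25 were called in the first alone and Mx1 in the second alone, and that contrast between the lists was not itself tested. Directly compared, 9CC and 12SPF had no called gene among the 32 (3 were higher in 9CC and 1 lower at an unadjusted p under 0.05 in limma), where 0.011% of all genes were called, and the median of 9CC minus 12SPF was 0.23.

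12SPF replicate 1 stood low in part of the genes. Ifit1 read 8.19, 8.04 and 7.18 in 12WT but 6.49, 8.53 and 8.08 in 12SPF, a difference of -0.10 ± 0.45. Irf7 read 7.65, 8.60 and 8.31 in 12SPF and Rsad2 6.84, 8.25 and 8.21, with replicate 1 the lowest of all 27 arrays for both. On the same array Zbp1, Bst2 and Ifi35 were at 8.65, 7.89 and 10.33, all above every 12WT array.

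The conventional knockouts at 12 weeks had a smaller difference. Zbp1, at 7.56, 7.79 and 7.51 in 12CC, was the single gene called higher than in 12WT, by 1.34 ± 0.22 (limma adjusted p = 0.00826), where 0.264% of all genes were called higher. At an unadjusted p under 0.05, 15 of the 32 were higher and none was lower, the median difference was 0.44, and in 19 of the 32 all 3 arrays of 12CC exceeded all 3 of 12WT, which held for 9.11% of all genes. Without 12WT replicate 1 the count was 5, with Oasl2, Irf9, Stat2 and Lgals3bp added, and without 12CC replicate 2 it was 0. A further quantile normalization gave 4 (Zbp1, Irf9, Stat2 and Lgals3bp), centring on array medians 2, and a filter on low genes 3.

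Against 12SPF, 8 of the 32 genes were lower in 12CC and none higher by limma, where 13.6% of all genes were called lower. They were Zbp1, Ifit2, Usp18, Bst2, Ifi35, Parp9, Parp14 and Dtx3l. Zbp1 fell by 1.23 ± 0.22 on the log2 scale, or 2.34-fold (limma adjusted p = 0.00203). Ifit2 read 6.90, 7.10 and 7.25 in 12CC and 7.83, 8.42 and 8.83 in 12SPF, 2.43-fold lower, without overlap. The median over the 32 genes was -0.27. Members outside the 8 included some above 0, such as Rsad2, 8.53, 8.68 and 8.49 in 12CC, at 0.80 ± 0.32 (limma adjusted p = 0.0709), and Irf7 at 0.57 ± 0.28 (limma adjusted p = 0.149). Fitted on the arrays of these 2 groups alone no gene was called, while without 12CC replicate 1 there were 4 and without 12SPF replicate 3 there were 5. Without 12SPF replicate 1 there were 7, and Usp18 was no longer called, at -1.40 (limma adjusted p = 0.0638).

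**Figure D3:**
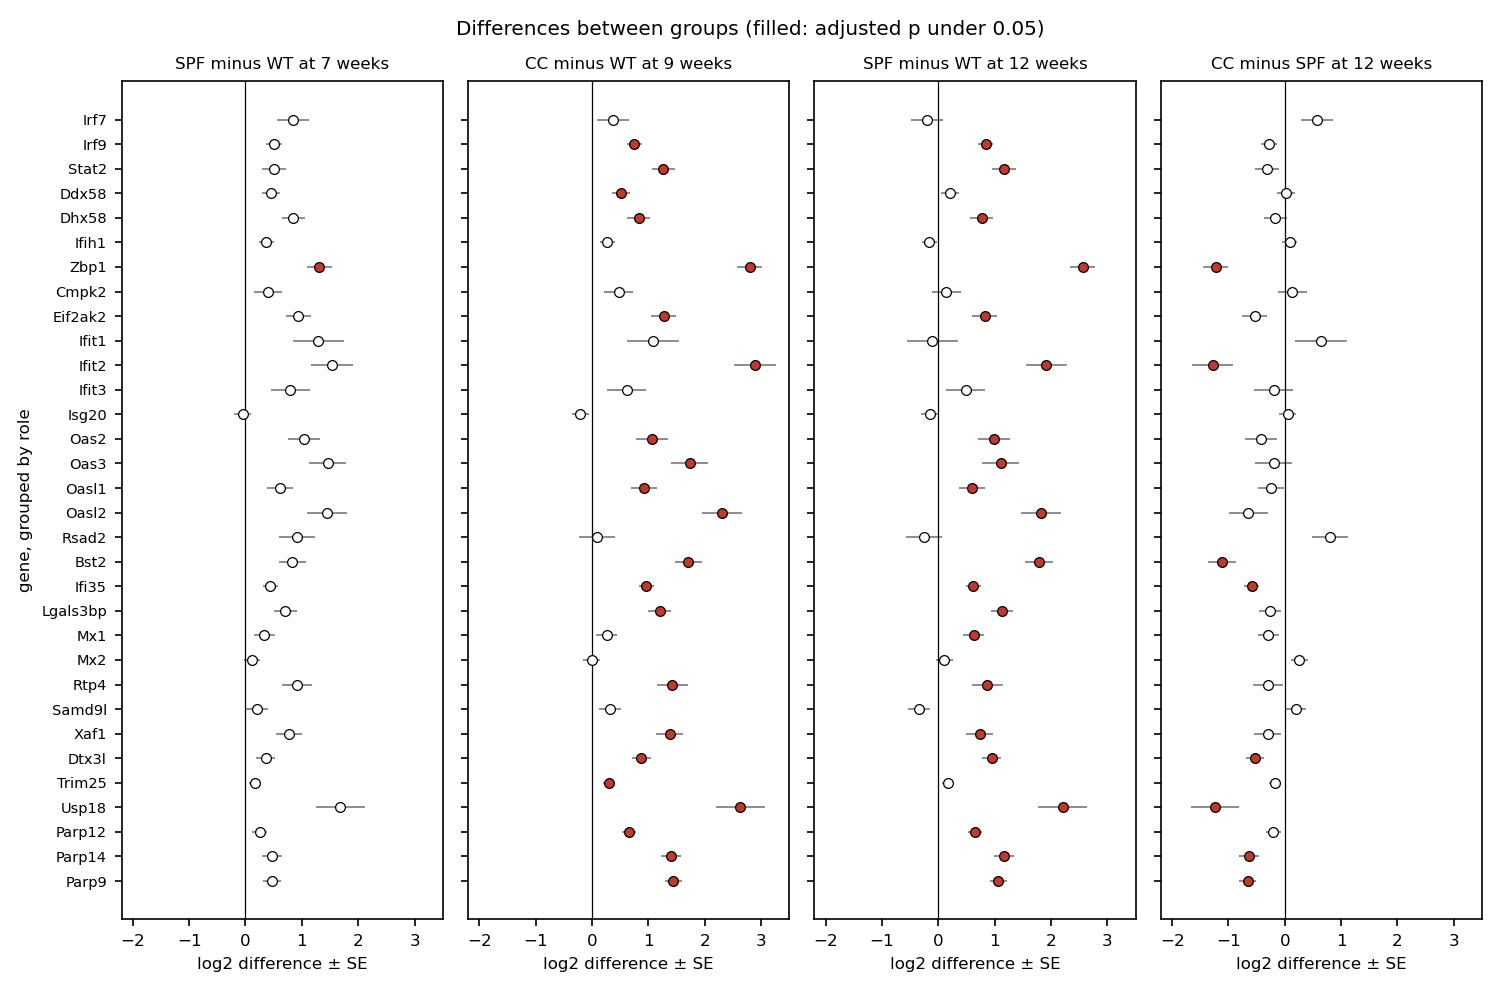
Points are log2 differences between group means for the 32 genes, with standard errors from limma as bars, in 4 comparisons; filled points passed an adjusted p of 0.05. 1 gene is filled in SPF minus WT at 7 weeks, 22 in CC minus WT at 9 weeks, 21 in SPF minus WT at 12 weeks and 8, all below 0, in CC minus SPF at 12 weeks.

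The CC group changed with age. From 7 to 9 weeks 19 of the 32 genes rose in CC and none fell by limma, where 5.34% of all genes rose, with a median change of 0.75. Ifit2 went from 6.67, 6.54 and 7.57 in 7CC to 9.76, 9.11 and 8.65 in 9CC, up by 2.24 ± 0.37. Usp18 went from 5.39, 5.49 and 5.63 to 8.27, 7.61 and 7.40, up by 2.26 ± 0.43. The count was 9 without 7CC replicate 1, 11 without 7CC replicate 2, 8 without 9CC replicate 1 and 12 without 9CC replicate 2.

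From 9 to 12 weeks 12 genes fell in CC and none rose by limma, where 5.4% of all genes fell, with a median change of -0.59. Ifit2 fell by 2.09 ± 0.37, Usp18 by 1.74 ± 0.43, Zbp1 by 1.36 ± 0.22 and Oasl2 by 1.25 ± 0.35 on the log2 scale. The count was 3 without 9CC replicate 1, 4 without 9CC replicate 2, 5 without 12CC replicate 1, 6 without 12CC replicate 2 and 7 without 12CC replicate 3. It was 19 when only the arrays of 9CC and 12CC were fitted.

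Neither WT nor SPF gave a call over age in these genes by limma. In SPF there was 1 higher and 1 lower from 7 to 9 weeks and 1 higher from 9 to 12 weeks at an unadjusted p under 0.05, where 0.726% and 0% of all genes were called. Without 9SPF replicate 3, Zbp1 was called higher from 9 to 12 weeks. In WT none passed even the unadjusted threshold in either interval, where 0.0055% and 0% of all genes were called. The SPF medians were -0.01 and -0.08, and the WT medians -0.10 and -0.02.

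Tested as a change of the difference, CC minus WT widened from 7 to 9 weeks in 10 of the 32 genes by limma, where 1.11% of all genes were called in that direction: Zbp1, Ifit2, Usp18, Oasl2, Xaf1, Parp14, Parp9, Stat2, Lgals3bp and Ifi35. Zbp1 widened by 2.29 ± 0.32 (limma adjusted p = 0.00144). The count was 3 without 7WT replicate 3, 9WT replicate 1, 7CC replicate 1, 9CC replicate 1 or 9CC replicate 2, 2 without 9WT replicate 2 or 7CC replicate 2, and 5 without 9WT replicate 3. Fitted on the 4 groups alone it was 17.

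CC minus WT narrowed from 9 to 12 weeks in 4 genes, Ifit2, Zbp1, Parp9 and Ifi35, where 1.44% of all genes were called in that direction. That count fell to 0 without 9WT replicate 1, 2 or 3, 12WT replicate 2, 9CC replicate 1 or 2, or 12CC replicate 1 or 2, and to 1, Ifi35, without 12CC replicate 3. It was 10 when the 4 groups were fitted alone.

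CC minus SPF moved downward from 9 to 12 weeks in 7 genes by limma, where 10.7% of all genes did: Ifit2, Zbp1, Usp18, Bst2, Parp9, Parp14 and Ifi35. Ifit2 moved by -2.48 ± 0.52 (limma adjusted p = 0.00404) and Zbp1 by -1.97 ± 0.32 (limma adjusted p = 0.000956). Only Zbp1 of the 7 was called when the 4 groups were fitted alone. Without 12SPF replicate 1 the count was 8, with Dtx3l added. The change of SPF minus WT from 9 to 12 weeks gave no call by limma (1 of the 32 was lower and none higher before adjustment, at p under 0.05), where 0% of all genes was called. Without 12SPF replicate 2, Samd9l was called.

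Ifit1, Ifit3, Irf7, Rsad2, Cmpk2, Ifih1, Isg20, Mx2 and Samd9l were called in none of the 20 comparisons fitted. The share of all genes called in none was not worked out. Ifih1, Samd9l and Isg20 were bright and nearly level, with group means spanning 0.45, 0.34 and 0.49. Ifit1, Ifit3, Irf7 and Rsad2 spanned 1.02 to 1.32 between their highest and lowest group means, and those pairs of groups were not all among the comparisons tested. In the promoters shown above, Ifit1, Ifit3 and Rsad2 carry the same letters as Oas3, Bst2 and Stat2, which were called.

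The interferons themselves were close to the floor of the array. Of 20 listed genes for type I and type III interferons, 9 were measured, and none was called in any of the 9 comparisons between groups at one age by limma (at an unadjusted p under 0.05, at most 1 in any of them). Their mean lay between 3.40 and 3.63 on every array. Ifnb1, the first type I interferon made in many infected cells, read 3.20 to 3.67, and was -0.08 ± 0.12 in 9CC minus 9WT (limma adjusted p = 0.658). Probe sets this dim do not show whether the transcript was absent.

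Receptor and signalling genes were called in part. By limma 3 of 10 were higher in 9CC than in 9WT, 1 in 9SPF than in 9WT and 5 in 12SPF than in 12WT, where 14.2%, 7.41% and 18.2% of all genes were called higher. Socs1, the feedback inhibitor of JAK kinases, rose by 2.11 ± 0.41 in 9CC and by 2.81 ± 0.41 in 12SPF. Ifnar2, a chain of the type I receptor, was 0.81 ± 0.19 higher in 9CC, and Tyk2 was 0.26 ± 0.07 higher.

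The genes that lead to interferon production rose in part. In 9CC, 9SPF and 12SPF, 14.2%, 7.41% and 18.2% of all genes were called higher than in WT of the same age. Called lower were 1793, 806 and 3024 of the 18193 genes. By limma 10 of 15 production genes were higher and 1 lower in 9CC than in 9WT, 7 higher and 1 lower in 9SPF, and 10 higher and none lower in 12SPF. Those with the smallest adjusted p in 9CC were Irf8 (1.33 ± 0.17), Irf1 (1.11 ± 0.17) and Tlr3, the endosomal sensor of double-stranded RNA (0.77 ± 0.13). Irf1 and Irf8 also answer to interferon gamma. Of 38 other interferon-stimulated genes, 24 were higher and 1 lower in 9CC, 14 higher and none lower in 9SPF, and 26 higher and 2 lower in 12SPF. Their medians were 0.79, 0.46 and 0.58, against 0.94, 0.73 and 0.75 for the 32. Ifitm3, a membrane protein that blocks viral fusion, rose by 1.60 ± 0.22 in 9CC and by 1.78 ± 0.22 in 12SPF.

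Genes known chiefly for their answer to interferon gamma rose in the same comparisons. By limma all 28 measured were higher in 9CC than in 9WT, with a median of 2.70, and all 28 in 12SPF than in 12WT, with a median of 2.71. In 9SPF 24 were higher than in 9WT. In 12CC 9 were higher than in 12WT and all 28 lower than in 12SPF. Of all genes, 14.2% were called higher in 9CC, 18.2% in 12SPF and 7.41% in 9SPF than in WT of the same age. In 12CC 0.264% of all genes were called higher than in 12WT and 13.6% lower than in 12SPF. Psmb9, a subunit of the immunoproteasome, was 3.01 ± 0.25 higher in 9CC, and Iigp1, an interferon-gamma-inducible GTPase, 5.32 ± 0.48. Ifng read 2.60 to 2.92 on the 9 WT arrays, 6.82, 4.68 and 3.27 in 9CC, and 6.75, 3.86 and 7.41 in 12SPF.

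At 7 weeks the gene groups had the following medians. In 7CC minus 7WT the interferon gamma genes had a median of 0.82, with Iigp1 and Irgm2 called higher, against 0.13 for the 32 type I genes. In 7SPF minus 7WT the medians were 0.79, with none called by limma (16 higher and none lower at an unadjusted p under 0.05), and 0.66. Of all 18193 genes, 62 were called higher in 7CC and 6 in 7SPF than in 7WT. These comparisons share the 7WT arrays, and their medians include 7WT replicate 3. The 7WT arrays averaged 7.23, 7.14 and 7.79 in the 32 genes, and 6.71, 6.67 and 6.91 in the interferon gamma genes. Replicate 3 thus stood further above the other 7WT arrays in the 32 genes. Directly, 7CC minus 7SPF had a median of 0.04 in the interferon gamma genes and -0.47 in the 32.

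The arrays that stood apart can be read in the other gene groups too. 7SPF replicate 2, with a mean of 8.47, had the highest level of the 32 on any array, and its interferon gamma genes averaged 7.32, the lowest of the 3 arrays of 7SPF, while its 38 other interferon-stimulated genes averaged 7.15, the highest of the 3. 7WT replicate 3 averaged 7.79 in the 32 and 6.91 in the interferon gamma genes, where the other WT arrays were at 6.62 to 6.85, and it was also the highest WT array in the 38 other interferon-stimulated genes, at 6.88. 12SPF replicate 1 averaged 7.68 in the 32 and 9.66 in the interferon gamma genes, where the other arrays of 12SPF were at 9.16 and 10.2. The means of both gene groups on each array are a description of these 27 arrays.

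**Figure D4:**
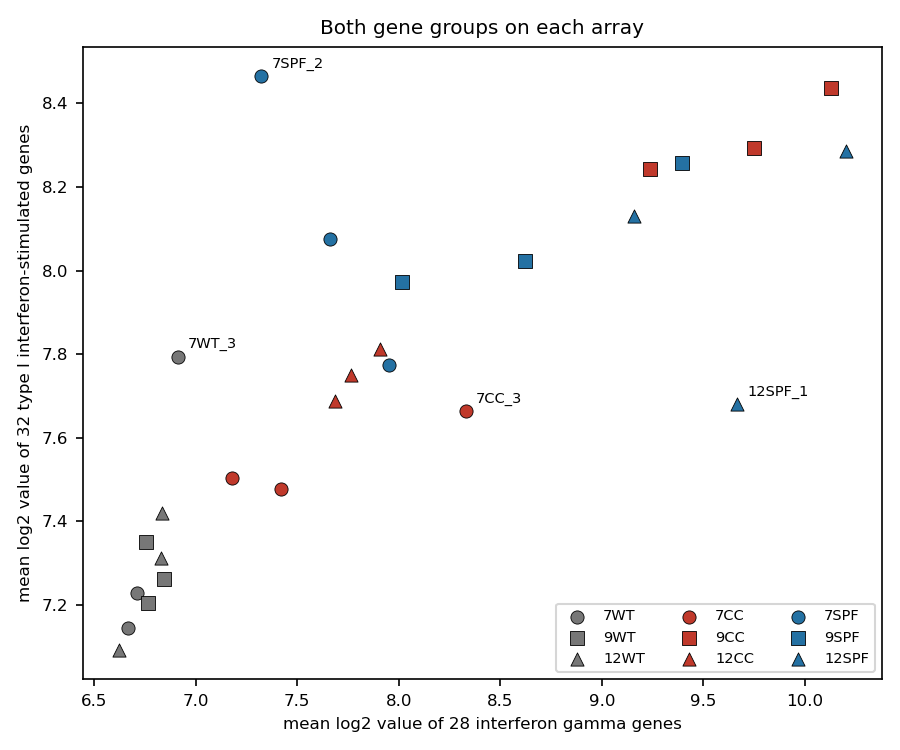
Each point is an array, placed by the mean log2 value of 28 interferon gamma genes (horizontal) and of the 32 type I interferon-stimulated genes (vertical); grey is WT, red CC and blue SPF, with circles for 7, squares for 9 and triangles for 12 weeks. 7SPF replicate 2 (7.32 and 8.47) and 12SPF replicate 1 (9.66 and 7.68) lie on opposite sides of the other arrays.

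Markers of several kinds of blood-derived cells moved with the 9- and 12-week results, but those of B cells did not. Of all genes, 14.2% were called higher in 9CC, 7.41% in 9SPF and 18.2% in 12SPF than in WT of the same age. Called lower were 1793 of the 18193 genes in 9CC and 3024 in 12SPF. Of 14 macrophage and monocyte markers, 13 were higher in 9CC than in 9WT, 2 in 9SPF than in 9WT and 12 in 12SPF than in 12WT by limma. Their mean was 6.37 to 6.88 on the WT arrays, 7.68 to 8.27 in 9CC, 6.80 to 7.42 in 9SPF and 7.40 to 8.57 in 12SPF. In 12CC it was 6.90 to 7.12 against 6.45 to 6.63 in 12WT, without overlap, with none of the 14 called by limma (3 higher at an unadjusted p under 0.05). Neutrophil markers averaged 3.63 to 3.83 in WT, 5.18 to 5.84 in 9CC, 3.69, 3.89 and 5.28 in 9SPF and 4.58 to 7.05 in 12SPF. Of 10 T cell markers, 5 were higher in 9CC and 6 in 12SPF than in WT of the same age, with means of 5.20 to 5.66 in 9CC, 4.80 to 5.84 in 12SPF and at most 4.71 in 9WT and 4.63 in 12WT. Of 8 cytotoxic lymphocyte markers it was 5 and 4, with means of 5.58 to 6.08 in 9CC, 5.30 to 5.88 in 12SPF and at most 4.49 in 9WT and 4.60 in 12WT. Of 7 dendritic cell markers 3 were higher in each, with means of 5.11 to 5.26 in 9CC, 4.77 to 5.20 in 12SPF and at most 4.69 in 9WT and 4.63 in 12WT. The 8 B cell markers averaged 4.44 to 5.28 in 9CC and 5.18 to 5.52 in 9WT. At 12 weeks they averaged 4.55 to 6.02 in 12SPF and 4.79 to 5.26 in 12WT, so that both pairs of groups overlapped. The 10 smooth muscle markers were lower in 12SPF than in 12WT in all 10 cases and in 9CC than in 9WT in 8. The 17 markers of colon epithelium averaged 11.2 to 12.0 on every array. In 12SPF they averaged 11.50, 11.85 and 11.16, against 11.64 to 11.89 in 12WT. The part of these shifts in the interferon genes was not tested.

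At 7 weeks some of the same markers differed. The macrophage mean was 6.98 to 7.04 in 7CC and 6.37 to 6.70 in 7WT, without overlap. By limma 1 of the 14, Cd14, was called higher, where 62 of the 18193 genes were. The cytotoxic lymphocyte mean was 4.67 to 4.93 in 7SPF and 4.41 to 4.55 in 7WT, also without overlap, with none of the 8 called by limma (1 higher at an unadjusted p under 0.05). The part of these markers in the interferon genes was not tested. The macrophage mean in 7SPF was 6.36 to 6.99, with none of the 14 called by limma against 7WT (none at an unadjusted p under 0.05 either). On 7SPF replicate 2, highest in the 32, it was 6.36. Markers of plasmacytoid dendritic cells, the cells known for making much type I interferon, averaged 6.42 to 6.53 in 7SPF and 6.46 to 6.55 in 7WT. At 9 weeks they averaged 6.282 to 6.449 in 9CC, 6.287 to 6.429 in 9SPF and 6.454 to 6.510 in 9WT. At 12 weeks it was 5.92 to 6.28 in 12SPF and 6.30 to 6.47 in 12WT. The 9CC, 9SPF and 12SPF arrays thus lay below all WT arrays of their age. By limma 1 of these 7 markers, Ccr9, was higher in 9CC than in 9WT, about the 14.2% share of all genes called higher there. Klk1 was lower in 12SPF than in 12WT by 2.35 ± 0.50 on the log2 scale, where 3024 of the 18193 genes were called lower.

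For 13 of the 32 genes the array holds more than 1 probe set. The second probe set of Zbp1 gave 2.78 in 9CC minus 9WT and 2.99 in 12SPF minus 12WT, close to the 2.80 and 2.56 of the first. Rsad2's other probe sets gave 0.08 and -0.23 in 9CC minus 9WT, near the 0.09 of the one used. Dtx3l's second gave 1.38 against 0.88. Those of Eif2ak2 gave 0.55 and 0.53 against 1.27, and the dim second probe set of Xaf1, with a mean of 3.28, gave -0.02 against 1.38. For Trim25, the other probe sets gave 0.13 and 0.65 in 9CC minus 9WT, against 0.31 for the one used. Their means were 9.92 and 6.58 against 9.93, so the bright one gave the smaller difference. Those of Ddx58 gave 0.33 and 0.01 against 0.52, with means of 5.36 and 3.56 against 6.65. Of the 32 probe sets used, 9 carry a suffix for probe sets that match several transcripts of a gene or of related genes, among them those of Zbp1, Oasl2, Irf7 and Ifi35, so that these transcripts are not told apart there.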

How the data were processed

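The deposited values are log2 intensities of 45101 Affymetrix probe sets on 27 arrays, normalized by the authors with the Bioconductor package affyPLM per the series' design text. Of affyPLM, the version and the background and summary steps were not given in the sources used here. The design text names a rat array, whereas the probe sets are those of the mouse platform. Control probe sets (64) were left out. In the platform annotation, 34945 probe sets carry 1 gene symbol, 932 several and 9160 none, and the 34945 gave 18193 genes, each read from its brightest probe set on average. No further normalization was applied.

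Means of the 9 groups were fitted to all 27 arrays with limma 3.58.1 in R 4.3.3 (lmFit and eBayes, 18 residual degrees of freedom), so that all comparisons share one estimate of the spread, and 20 contrasts were tested. P-values were adjusted by Benjamini-Hochberg over 18193 genes, and genes called at an adjusted p under 0.05. The procedure was tested on simulated data. Precision is limited by the 3 arrays per group. The genes and lists were chosen with earlier results of these data known. All 32 genes could be named. From other lists, up to 3 called genes with the smallest adjusted p in a comparison were named, besides Ifng, Ifnb1, Il10 and set tissue markers. Macrophage, neutrophil, T cell, cytotoxic lymphocyte, B cell, dendritic cell, smooth muscle, plasmacytoid dendritic cell, pancreatic, epithelial and clock lists were read alongside. Alternatives were a further quantile normalization, centring of arrays on their medians, a test without the dimmest 40% of genes, averaging the probe sets of each gene, a fit on the arrays of the groups compared alone, the replicate number as a block, and leaving out each array in turn. Same-numbered arrays of different groups at one age did not deviate together as a rule (27 pairs, correlations across genes of -0.438 to 0.264, 4 of them over 0.1). The main fit did not pair arrays by number, and these correlations cannot exclude a pairing of the samples.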

Additional observations from a re-analysis of the deposited data

Results flagged for a closer look

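In 21 cases limma's test of a change in a difference passed an adjusted p of 0.05, each the same contrast at a pair of ages. From 7 to 9 weeks CC minus WT widened by 2.41 for Ifit2, 2.25 for Oasl2, 2.38 for Usp18, 2.29 for Zbp1, 1.17 for Stat2, 0.79 for Ifi35, 1.52 for Xaf1, 1.20 for Parp9, 1.33 for Parp14 and 1.11 for Lgals3bp on the log2 scale, with limma adjusted p-values of 0.00144 (Zbp1) to 0.0467 (Usp18). From 9 to 12 weeks CC minus WT changed by -2.26 for Ifit2, -1.46 for Zbp1, -0.93 for Ifi35 and -1.04 for Parp9. Over the same ages CC minus SPF changed by -2.48 for Ifit2, -1.99 for Usp18, -1.97 for Zbp1, -0.87 for Ifi35, -1.55 for Bst2, -1.11 for Parp9 and -0.996 for Parp14. The last 2 series of changes share the 9CC and 12CC arrays.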

How the results depend on the processing

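No difference changed sign among the 123 calls made in these genes. Calls lost numbered 5 after centring on array medians, 4 after a further quantile normalization, 4 with the probe sets of each gene averaged, 0 without the dimmest 40% of genes, 22 in fits on the groups compared alone, 16 with the replicate block, and 60 in at least 1 fit without an array. Centring moved the median of all genes by at most 0.056. Fits on the groups compared alone gave 13 calls in SPF minus WT at 12 weeks (21 in the fit of all arrays), 0 in CC minus SPF at 12 weeks (8), 19 in CC at 12 minus 9 weeks (12), and 17, 10 and 1 for the changes of CC minus WT from 7 to 9 weeks (10), of CC minus WT from 9 to 12 weeks (4) and of CC minus SPF (7). These fits have fewer residual degrees of freedom. The replicate block gave 5 and 0 calls for the changes of CC minus WT from 7 to 9 and from 9 to 12 weeks, and moved no other count by over 1.5 times. CC minus WT at 12 weeks, with 1 call, had 4 after quantile normalization, 2 after centring and 3 with the filter on low genes. The cause of these shifts was not tested. Leaving out 1 array at a time, the calls ranged from 0 to 5 in SPF minus WT at 7 weeks, 0 to 1 in CC minus SPF at 7 weeks, 9 to 18 in SPF minus WT at 9 weeks, 0 to 5 in CC minus WT at 12 weeks, 4 to 9 in CC minus SPF at 12 weeks, 8 to 17 in CC at 9 minus 7 weeks, 3 to 9 in CC at 12 minus 9 weeks, 0 to 1 in SPF at 12 minus 9 weeks, 2 to 11 in the change of CC minus WT from 7 to 9 weeks, 0 to 6 in the change of CC minus WT from 9 to 12 weeks and 0 to 1 in the change of SPF minus WT. With 7WT replicate 3 and 7SPF replicate 2 both left out, a choice made after the data were seen, SPF minus WT at 7 weeks had 3 calls.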
